A study of Mus musculus with 3 samples.

Results

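Kinesins are motor proteins that use ATP to move along microtubules or to take them apart, and their genes were followed here in the mandibular condyle of mice that lack 1 or both copies of Dspp. The members are the rows whose gene symbol is Kif or Kifc followed by a number and at most 1 letter, which are 42 of the 26970 genes in the deposited table. By the known role of each protein they were sorted into 13 mitotic kinesins, 13 transport kinesins, 10 ciliary kinesins and 6 others. Dspp encodes dentin sialophosphoprotein, a matrix protein of dentin, bone and cartilage, and the study asked how its partial or full loss acts on the condyle of the temporomandibular joint.

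RNA was sequenced from condyles of 4-month-old mice in 3 genotypes, wild type (WT, +/+), heterozygous (Dspp+/-) and homozygous (Dspp-/-) for a global Dspp knockout on the C57BL/6 background. Each condyle was taken with its cartilage still joined to the subchondral bone, so cartilage, bone and marrow cells can all contribute RNA. The WT library and the Dspp+/- library each came from the pooled tissue of 3 animals, and the number behind the Dspp-/- library is not given in the sources used here. The labels speak of triplicates, but every genotype has a single value per gene, taken here as 1 library, so there are no replicates and no test between genotypes was possible. Every difference below is a difference between single libraries. Intervals are 95% Clopper-Pearson intervals on a fold, hold counting error alone, without any variation from mouse to mouse.

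Levels are given as FPKM, the fragments of a gene scaled to gene length and to library size. The recovered depth ranged from 20241581 fragments (WT) to 23613622 (Dspp+/-), with 22253161 for Dspp-/-. Mitochondrial genes took 25.02% of all FPKM in the WT library, 36.9% in the heterozygous and 37.3% in the homozygous library, and FPKM does not adjust for this. All 10 osteoblast markers and all 10 chondrocyte markers were detected in every library. Xist, the RNA made by an inactive X chromosome, was at 2 fragments in WT compared to 12084 in Dspp+/- and 10563 in Dspp-/-, so the sex of the pooled animals and the genotype cannot be told apart. In bulk tissue, fewer cells of a type and less RNA per cell also cannot be told apart. The Dspp gene was not analysed here, and the labels of the libraries could not be checked by it.

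Mitotic kinesins are made mainly in dividing cells, where they push spindle poles apart, move and align chromosomes, shorten microtubule ends and build the midzone on which the cell is cut into daughters. Most transport kinesins carry vesicles, organelles and RNA towards the plus end of microtubules in all phases of the cell cycle and in cells that no longer divide. Ciliary kinesins drive or regulate traffic in the primary cilium, the antenna through which chondrocytes and osteoblasts receive Hedgehog signals. Genes needed in mitosis often share a promoter element, the cell cycle genes homology region, through which they are held silent in resting cells.

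The promoter sequences are shown first because they are where the classes differed in a property that does not depend on the libraries. A RefSeq promoter (GRCm38.p6, 250 bases before to 50 bases after the annotated start) was at hand for 32 of the 42 kinesins. The letters TTTGAA, the core of the cell cycle genes homology region, or their reverse complement TTCAAA occurred in the promoters of 11 of 12 mitotic kinesins and of 2 of 16 transport and ciliary kinesins, Kif1a and Kif27. Of the 4 other kinesins with a promoter Kif26b held them, within the shorter window below as well, and it also held a CCAAT box there. Among all RefSeq promoters of this length 17.9% held these letters, and among all genes with such a promoter 20.2% did. Within the 100 bases from 75 before to 25 after the start, a window chosen after seeing the data, they occurred in 8 of 12 mitotic kinesins and in the same 2 of 16 transport and ciliary kinesins, whereas 6.09% of all genes with a promoter held them there. These 8 windows are printed below with those of Kif1c, the most abundant kinesin of the condyle, and Kif3a, a ciliary motor, for contrast. The first 4 lie at chr19:37376307-37376406 (plus strand) for Kif11, chr9:122951006-122951105 (plus strand) for Kif15, chr7:127042396-127042495 (minus strand) for Kif22 and chr11:102925100-102925199 (minus strand) for Kif18b. The next 4 lie at chr9:61946775-61946874 (minus strand) for Kif23, chr19:34922283-34922382 (plus strand) for Kif20b, chrX:100625990-100626089 (plus strand) for Kif4 and chr17:33890609-33890708 (minus strand) for Kifc1. The windows for contrast lie at chr11:70700473-70700572 (plus strand) for Kif1c and chr11:53567294-53567393 (plus strand) for Kif3a. Each is written 5′ to 3′ on the strand of its gene, and capitals mark TTTGAA or TTCAAA and the CCAAT box, CCAAT or its reverse complement ATTGG.
Kif11: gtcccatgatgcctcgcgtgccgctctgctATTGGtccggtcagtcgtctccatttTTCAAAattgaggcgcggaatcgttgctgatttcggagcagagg
Kif15: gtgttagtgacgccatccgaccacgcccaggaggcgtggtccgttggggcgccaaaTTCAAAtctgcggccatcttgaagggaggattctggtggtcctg
Kif22: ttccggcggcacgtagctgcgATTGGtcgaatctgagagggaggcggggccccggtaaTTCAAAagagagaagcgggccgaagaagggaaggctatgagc
Kif18b: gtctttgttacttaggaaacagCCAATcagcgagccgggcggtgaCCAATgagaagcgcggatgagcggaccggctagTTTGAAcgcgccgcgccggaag
Kif23: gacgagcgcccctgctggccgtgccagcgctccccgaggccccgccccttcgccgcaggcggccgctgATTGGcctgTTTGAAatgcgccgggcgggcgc
Kif20b: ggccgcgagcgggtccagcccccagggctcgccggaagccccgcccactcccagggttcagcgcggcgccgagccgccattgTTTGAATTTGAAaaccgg
Kif4: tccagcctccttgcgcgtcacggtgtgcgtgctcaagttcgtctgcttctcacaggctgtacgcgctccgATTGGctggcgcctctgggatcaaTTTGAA
Kifc1: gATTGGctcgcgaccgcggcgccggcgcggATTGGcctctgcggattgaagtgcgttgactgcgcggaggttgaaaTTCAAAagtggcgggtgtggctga
Kif1c: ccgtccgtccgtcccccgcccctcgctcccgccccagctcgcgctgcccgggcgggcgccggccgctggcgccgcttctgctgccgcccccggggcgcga
Kif3a: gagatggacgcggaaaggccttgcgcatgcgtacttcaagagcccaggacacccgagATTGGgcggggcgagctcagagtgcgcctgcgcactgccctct
Counted from the annotated start, with -1 as the base before it and 1 as the first transcribed base, the first letter of the homology region lay at -19 in Kif11 and Kif15, -17 in Kif22, 2 in Kifc1, 3 in Kif23, 4 in Kif18b and 20 in Kif4. In Kif20b the letters stood in tandem at 8 and 14. Of the other mitotic kinesins, Kif14 held them at -228, Kif2c at -103 and Kifc5b at 30, and Kif18a did not hold them in this promoter. The CCAAT box separated the classes less, present in 8 of 12 mitotic and 6 of 16 transport and ciliary genes compared to 41.1% of all genes with a promoter. A CCAAT box can share its last T with TTTGAA, but in the windows printed no match of one motif overlaps a match of the other. A match describes the sequence only, not a bound site. Kif20a, Kif13b, Kif21b, Kif5a, Kif5b, Kifc2, Kifc3, Kif19a, Kif19b and Kif28 had no entry.

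**Figure D1:**
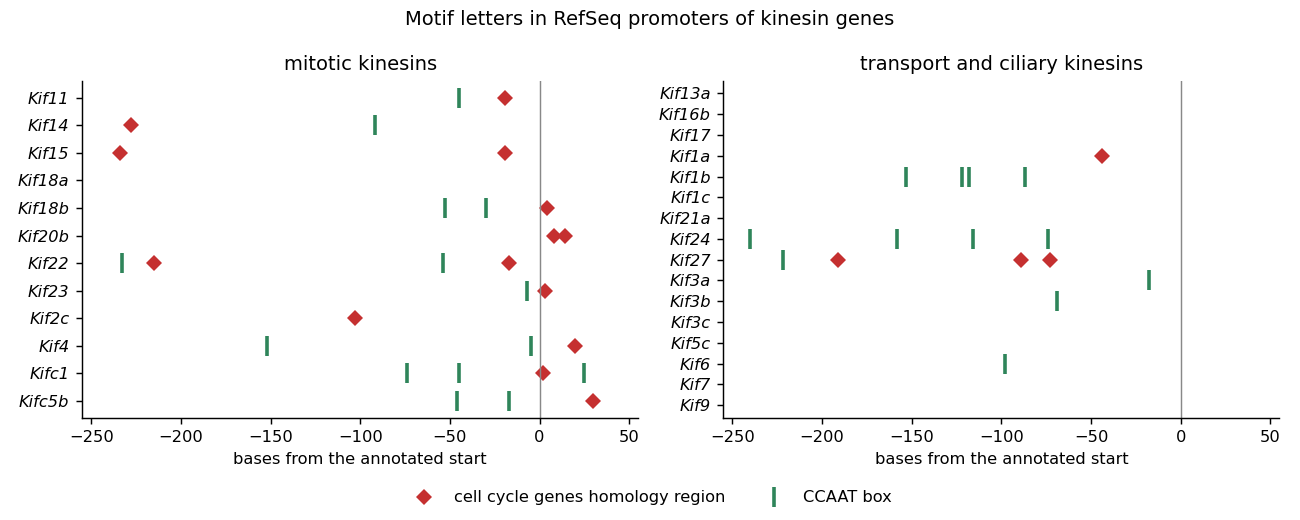
Each row is the RefSeq promoter or promoters of 1 kinesin gene, and the x axis gives the distance in bases from the annotated start (grey line). Red diamonds mark the first base of TTTGAA or its reverse complement and green bars that of CCAAT or its reverse complement; diamonds stand in 11 of 12 mitotic rows and in 2 of 16 transport and ciliary rows.

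Data showed that the mitotic kinesins were low in the WT condyle and higher in both mutant libraries. Their summed level was 9.02 FPKM in WT compared to 30.8 in Dspp+/- and 29.2 in Dspp-/-, which is 3.41 and 3.23 times the WT sum. The transport and ciliary kinesins together summed to 193, 214 and 176 FPKM, or 1.11 and 0.910 times WT. In WT 2 mitotic kinesins reached 1 FPKM, Kif11 and Kif20a, whereas 12 of the 13 did in Dspp+/- and 11 in Dspp-/-. Of the 23 transport and ciliary kinesins 14, 14 and 13 reached 1 FPKM in the same order of libraries. The comparisons of Dspp+/- and Dspp-/- to WT share the WT library, so they are not independent of each other.

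A share within a library does not depend on how the libraries are scaled to each other. Among the fragments of both classes, mitotic kinesins held 3.16% in WT (exact 95% binomial interval 2.98 to 3.35), 8.79% in Dspp+/- (8.54 to 9.04) and 10.1% in Dspp-/- (9.78 to 10.4). The counting intervals of the mutant libraries do not overlap that of WT. As a ratio of summed FPKM, mitotic to transport and ciliary kinesins stood at 0.0468 in WT, 0.144 in Dspp+/- and 0.166 in Dspp-/-. Kif11 ranked 16 among the 42 kinesins in WT, 6 in Dspp+/- and 5 in Dspp-/-, while Kif1c, Kif1b and Kif5b filled the first 3 places in every library.

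**Figure D2:**
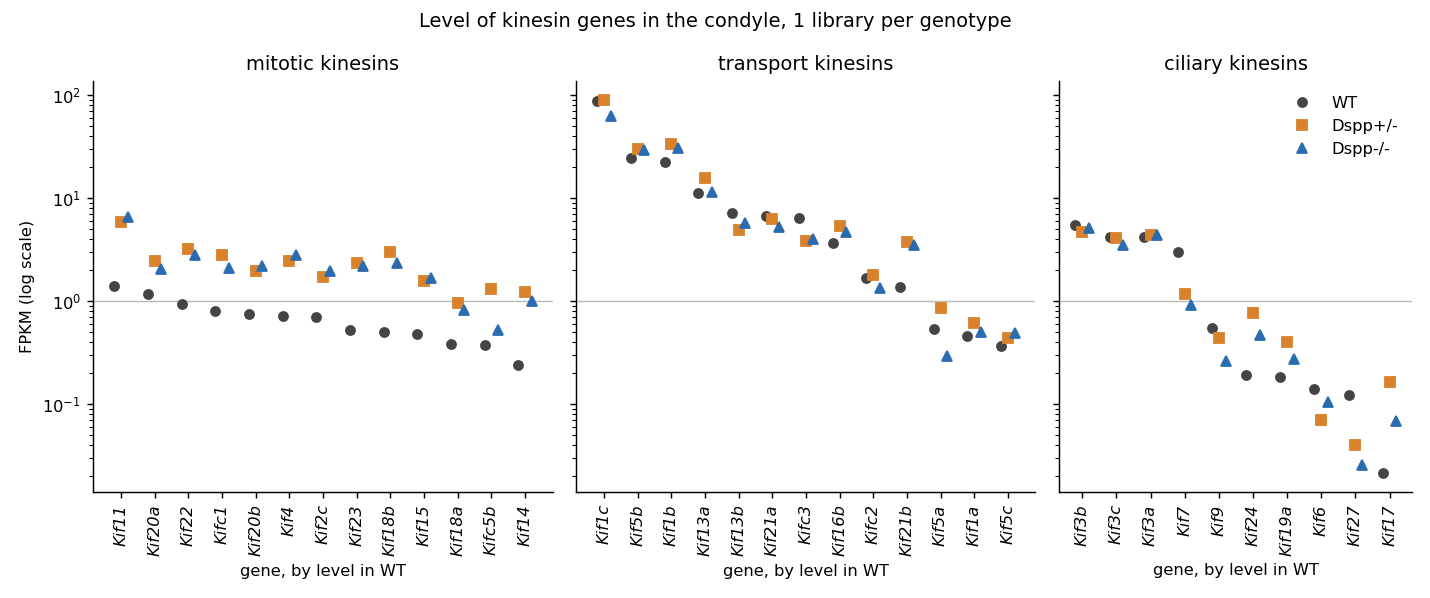
FPKM on a log axis for the mitotic, transport and ciliary kinesins, with 1 point per library (WT circles, Dspp+/- squares, Dspp-/- triangles) and genes ordered by their WT level. All 13 mitotic genes have both mutant points above the WT point, from Kif11 at 1.40, 5.82 and 6.61 FPKM to Kif14 at 0.239, 1.23 and 1.02 FPKM, while transport and ciliary points lie on either side of WT.

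Every mitotic kinesin had at least 20 fragments over the 3 libraries, and at least 28 in WT alone. Called by an FPKM ratio of at least 2 among genes with 20 fragments, a rule added after seeing the data, 13 of 13 mitotic kinesins were higher in Dspp+/- than in WT, where 12.1% of 17425 genes were. Kif20a sits at this threshold, with ratios of 1.99 to 2.20 under 4 other scalings of the libraries. In Dspp-/- 11 of 13 were higher than in WT by this rule, where 10.6% of genes were. The remaining 2 were Kif20a and Kifc5b. The median log2 ratio of FPKM over the 13 genes was 1.76 in Dspp+/- and 1.58 in Dspp-/-, beside 0.09 and 0.02 over all genes with 20 fragments.

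On the log2(FPKM + 1) scale, which understates the change of low genes, 10 of the 13 had a mean of at least 1 FPKM. Several of them passed this filter through the mutant libraries, so the counts on this scale are given as a description. In Dspp+/- 6 of them were at least 2-fold higher than in WT, namely Kif11, Kif18b, Kif23, Kif22, Kifc1 and Kif4, where 4.88% of 13026 genes were, and Kif4 lies at the threshold with a log2 ratio of 1.00. In Dspp-/- 4 of them were, namely Kif11, Kif18b, Kif4 and Kif23, where 4.05% were. No mitotic kinesin was lower than WT in either library on either scale.

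Among the motors that set up the spindle, Kif11 (kinesin-5), which slides antiparallel microtubules apart to separate the poles, was the most abundant mitotic kinesin in each library. Its level was 1.40 FPKM in WT compared to 5.82 in Dspp+/- and 6.61 in Dspp-/-, from 211, 1025 and 1097 fragments. That is 4.16 times WT in Dspp+/- (3.59 to 4.85) and 4.73 times WT in Dspp-/- (4.08 to 5.51). Kif15 (kinesin-12) can keep the spindle bipolar when Kif11 fails. It stood at 0.484 FPKM in WT compared to 1.56 in Dspp+/- and 1.69 in Dspp-/-, or 3.21 times WT (2.59 to 4.01) and 3.50 times WT (2.82 to 4.36). Both genes were a little higher in Dspp-/- than in Dspp+/-, and the interval of that difference left out 1 for Kif11 only, at a ratio of Dspp+/- to Dspp-/- of 0.881 (0.808 to 0.960).

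Kifc1 (kinesin-14) is a minus-end motor that bundles microtubules at the poles. It was at 0.810 FPKM in WT compared to 2.80 in Dspp+/- and 2.11 in Dspp-/-, which is 3.46 times WT (2.57 to 4.72) and 2.60 times WT (1.91 to 3.59). Kifc5b, a close relative, stood at 0.374, 1.32 and 0.522 FPKM, from 28, 115 and 43 fragments. It was high in Dspp+/- alone, at 3.52 times WT (2.31 to 5.53), while its ratio of 1.40 in Dspp-/- has an interval of 0.848 to 2.34 that holds 1. Of the 100-base words in Kifc5b exons 16.6% also occur in Kifc1, and 17.0% of those of Kifc1 occur in Kifc5b, so how reads were split between them is uncertain.

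The chromosome-bound motors were higher in both mutant libraries. Kif22 (kinesin-10), which pushes chromosome arms towards the spindle equator, was at 0.947 FPKM in WT compared to 3.20 in Dspp+/- and 2.82 in Dspp-/-. Kif4 (kinesin-4), which binds condensed chromatin and later the midzone, was at 0.726, 2.46 and 2.80 FPKM. Their ratios to WT were 3.37 (2.68 to 4.28) and 2.98 (2.36 to 3.80) for Kif22 and 3.39 (2.65 to 4.38) and 3.86 (3.02 to 4.98) for Kif4. Kif4 lies on the X chromosome, and 15.1% of its exon bases overlap Pdzd11 on the other strand. Pdzd11 had 0.733 and 0.943 times its WT level. The part of the Xist difference in the Kif4 ratio was not tested.

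Motors that act on microtubule ends included both the largest ratio and some of the smaller ones. Kif18b (kinesin-8), which controls the length of astral microtubules, was at 0.498 FPKM in WT compared to 3.00 in Dspp+/- and 2.34 in Dspp-/-, from 36, 253 and 186 fragments. The ratio in Dspp+/- was 6.02 (4.24 to 8.80), the largest among the mitotic kinesins in that library, and 4.70 (3.28 to 6.92) in Dspp-/-. Kif18a (kinesin-8), which damps chromosome movements at the equator, was at 0.382, 0.961 and 0.827 FPKM, or 2.52 times WT (1.93 to 3.31) and 2.17 times WT (1.65 to 2.87). Kif2c (kinesin-13), which depolymerises microtubules at centromeres, was at 0.702, 1.71 and 1.99 FPKM, or 2.43 times WT (1.81 to 3.31) and 2.83 times WT (2.12 to 3.83). Of the mitotic kinesins with a RefSeq promoter, Kif18a was the one that lacked the homology region letters. A link between these letters and the levels was not tested.

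For the midzone and cytokinesis motors the WT library was again the lowest. Kif23 (kinesin-6), the motor subunit of centralspindlin, was at 0.525 FPKM in WT compared to 2.35 in Dspp+/- and 2.20 in Dspp-/-, or 4.47 times WT (3.53 to 5.72) and 4.18 times WT (3.29 to 5.36). Kif20b (kinesin-6), which acts late in abscission, was at 0.753, 1.95 and 2.18 FPKM, or 2.59 times WT (2.07 to 3.26) and 2.89 times WT (2.32 to 3.63). Kif14, a kinesin-3 that works with citron kinase at the midbody, was at 0.239, 1.23 and 1.02 FPKM, or 5.18 times WT (3.83 to 7.13) and 4.26 times WT (3.13 to 5.90). Kif14 was the lowest mitotic kinesin in WT.

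Kif20a (kinesin-6), which brings mitotic kinases to the midzone, had the smallest ratio of the class in Dspp+/-. It was at 1.18 FPKM in WT compared to 2.45 in Dspp+/- and 2.06 in Dspp-/-, which is 2.07 times WT (1.64 to 2.63) and 1.74 times WT (1.37 to 2.23). Of its exon bases 29.3% overlap Cdc23 on the other strand, and the library kit named in the labels does not mark strand, so reads there cannot be told apart. Cdc23, a subunit of the anaphase-promoting complex, had 1.11 and 1.04 times its WT level.

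**Figure D3:**
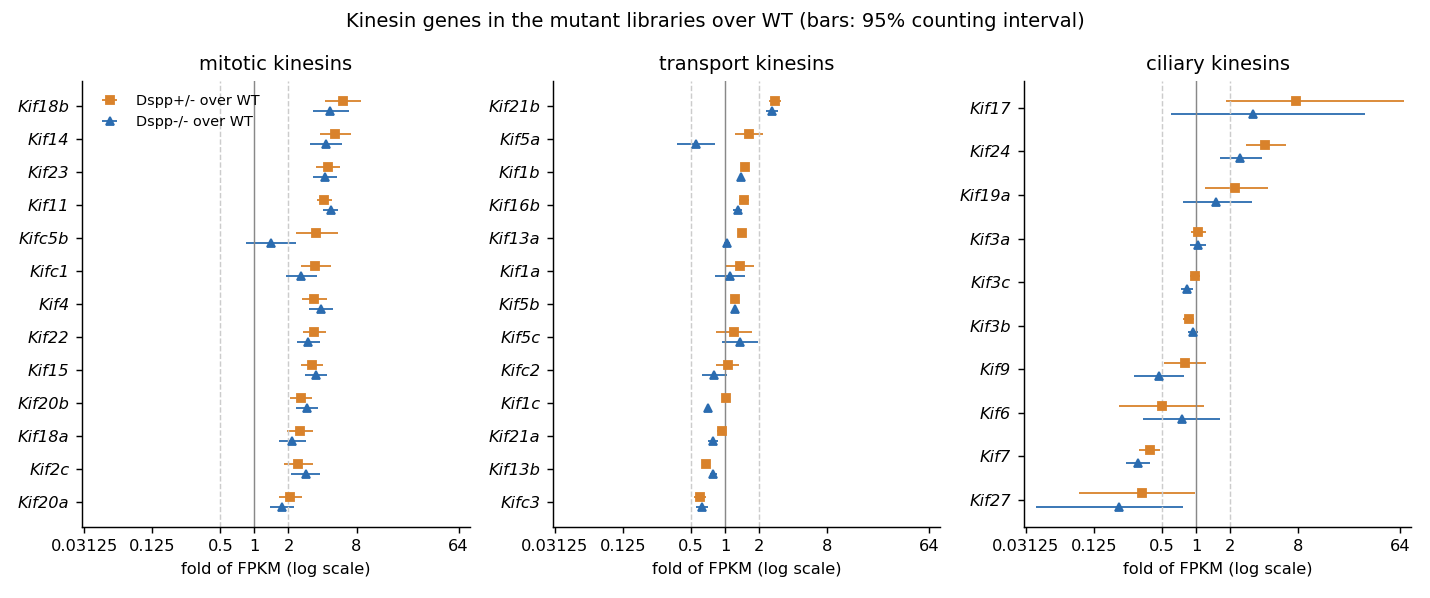
FPKM in Dspp+/- over WT (squares) and in Dspp-/- over WT (triangles) on a log axis, with 95% counting intervals as bars, for the 13 mitotic, 13 transport and 10 ciliary kinesins; the solid line is a ratio of 1 and dashed lines are ratios of 0.5 and 2. Mitotic ratios in Dspp+/- run from 2.07 for Kif20a to 6.02 for Kif18b, while most transport genes lie between the dashed lines.

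The transport kinesins held most of the kinesin RNA, and as a class they stayed near WT. The 3 most abundant, Kif1c, Kif1b and Kif5b, made up 64.2% of all kinesin FPKM in WT compared to 60.5% in Dspp+/- and 57.3% in Dspp-/-. For the 23 transport and ciliary kinesins, all with at least 20 fragments, the median log2 ratio of FPKM was 0.08 in Dspp+/- and -0.09 in Dspp-/-, beside 0.09 and 0.02 over all genes. By the ratio of 2 among genes with 20 fragments, 4 of 23 were higher in Dspp+/- (Kif21b, Kif24, Kif19a and Kif17) and 3 in Dspp-/- (Kif21b, Kif24 and Kif17), read against the 12.1% and 10.6% above. By the same rule 2 were lower in Dspp+/- (Kif7 and Kif27), where 7.29% of genes were, and 3 in Dspp-/- (Kif7, Kif27 and Kif9), where 5.79% were. On the log2(FPKM + 1) scale 14 of the 23 had a mean of at least 1 FPKM. Of these Kif21b alone was 2-fold higher in Dspp+/-, where 4.88% of genes were, and none was 2-fold lower, where 2.86% were. In Dspp-/- none was 2-fold higher, where 4.05% were, and Kif7 alone was 2-fold lower, where 1.37% were. A single gene of 14 is too few to set the class apart from these shares. At a log2 ratio of -1.06 the Kif7 call was lost when libraries were scaled without hemoglobin, immunoglobulin, mitochondrial and muscle genes, and the Kif21b call under median-ratio or upper-quartile scaling.

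Kinesin-3 motors carry vesicles as single, fast dimers. Kif1c, which moves dense core vesicles and integrins, was at 88.3 FPKM in WT compared to 90.3 in Dspp+/- and 62.7 in Dspp-/-, or 1.02 times WT (0.999 to 1.05) and 0.711 times WT (0.692 to 0.729). Kif1b, a carrier of mitochondria and synaptic vesicle precursors, was at 22.4, 33.6 and 30.6 FPKM, or 1.502 times WT (1.46 to 1.54) and 1.37 times WT (1.33 to 1.41). Kif1b was thus above WT in both mutant libraries and Kif1c below it in Dspp-/-, with neither past 2-fold. Kif13a, which positions recycling endosomes, was at 11.2, 15.8 and 11.6 FPKM, and Kif16b, a motor of early endosomes, at 3.69, 5.42 and 4.74 FPKM. Kif13b was below WT in both, at 7.25, 4.93 and 5.71 FPKM, or 0.680 times WT (0.635 to 0.728) and 0.787 times WT (0.737 to 0.841). Kif1a, a neuronal member, was low at 0.455, 0.613 and 0.501 FPKM.

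Kinesin-1 is the conventional motor, with heavy chains encoded by Kif5a, Kif5b and Kif5c. Kif5b, its widely expressed chain, was at 24.4 FPKM in WT compared to 29.7 in Dspp+/- and 29.6 in Dspp-/-, or 1.22 times WT (1.17 to 1.27) and 1.21 times WT (1.16 to 1.27). The chains best known from neurons were far lower, with Kif5c at 0.367, 0.439 and 0.497 FPKM. Kif5a lay on opposite sides of WT in the mutant libraries, at 0.537 FPKM in WT compared to 0.866 in Dspp+/- and 0.296 in Dspp-/-, from 76, 143 and 46 fragments. That is 1.61 times WT (1.21 to 2.16) in Dspp+/- and 0.551 times WT (0.373 to 0.804) in Dspp-/-. The 8 neuron and axon markers analysed summed to 26.0, 24.8 and 17.5 FPKM, of which Uchl1 alone made up 22.8, 21.4 and 14.5 FPKM. At 0 were 3 of the markers in WT (Nefl, Nefm and Gap43), 1 in Dspp+/- and 2 in Dspp-/-. In Dspp-/- Stmn2 was above WT, at 1.32 times (1.04 to 1.68), and Tubb3 below it, at 0.533 times (0.353 to 0.794). The part of these markers in the Kif5a values was not tested.

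Of the kinesin-4 transport motors, Kif21b was the transport kinesin farthest above WT. Known from neurons and immune cells, where it regulates microtubule growth, it was at 1.36 FPKM in WT compared to 3.73 in Dspp+/- and 3.54 in Dspp-/-, from 336, 1072 and 960 fragments. Its ratios were 2.74 (2.42 to 3.10) and 2.60 (2.29 to 2.95). On the log2(FPKM + 1) scale its value of 1.00 in Dspp+/- sits at the 2-fold threshold, and 0.94 in Dspp-/- is just under it. Its relative Kif21a went the other way, at 6.69, 6.24 and 5.21 FPKM, or 0.932 times WT (0.850 to 1.02) and 0.779 times WT (0.706 to 0.860). The minus-end motor Kifc3, which acts at adherens junctions, was at 6.46, 3.88 and 4.04 FPKM, or 0.600 times WT (0.533 to 0.675) and 0.625 times WT (0.555 to 0.703). Kifc2, a relative of Kifc3, was at 1.70, 1.79 and 1.36 FPKM, and its intervals hold 1 in both comparisons to WT.

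Among the ciliary kinesins, the subunits of the kinesin-2 motor that drives intraflagellar transport stayed close to WT. Kif3a was at 4.17 FPKM in WT compared to 4.38 in Dspp+/- and 4.36 in Dspp-/-, or 1.05 times WT (0.899 to 1.23) and 1.05 times WT (0.893 to 1.22). Kif3b, its partner, was at 5.50, 4.75 and 5.17 FPKM, or 0.864 times WT (0.772 to 0.967) and 0.940 times WT (0.841 to 1.05). Kif3c, which can pair with Kif3a in place of Kif3b, was at 4.20, 4.12 and 3.49 FPKM, or 0.980 times WT (0.879 to 1.09) and 0.830 times WT (0.740 to 0.931). Of the Kif3c exon bases 40.7% are overlapped on the other strand. The homodimeric kinesin-2 Kif17 had only 2, 18 and 7 fragments, a ratio of 7.72 in Dspp+/- with a counting interval of 1.85 to 68.6 and of 3.18 in Dspp-/- with one of 0.606 to 31.4.

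Kif7, the kinesin-4 at the cilium tip that regulates Gli factors in Hedgehog signalling, fell most among the kinesins above 1 FPKM in WT. It was at 2.98 FPKM in WT compared to 1.16 in Dspp+/- and 0.912 in Dspp-/-, from 276, 126 and 93 fragments, or 0.391 times WT (0.314 to 0.485) and 0.307 times WT (0.240 to 0.389). Both mutant libraries were far below WT and did not differ from each other beyond counting error, at 1.277 (0.969 to 1.69) for Dspp+/- over Dspp-/-. Kif7 overlaps Ticrr and 9330171B17Rik on the other strand over 20.3% of its exon bases, and Ticrr, a replication gene, had 22, 195 and 188 fragments, so reads of the overlap cannot be assigned to either strand. Kif7 fell while the chondrocyte markers summed to 1699 FPKM in WT compared to 474 in Dspp+/- and 756 in Dspp-/-. On the log2(FPKM + 1) scale 7 and 6 of the 9 markers at a mean of 1 FPKM were at least 2-fold lower. By this rule 2.86% of 13026 genes were lower in Dspp+/- and 1.37% in Dspp-/-. None of the 10 chondrocyte markers was at 0. The osteoblast markers summed to 15944, 4397 and 8844 FPKM, with 9 and 2 of 10 at least 2-fold lower by the same rule and none at 0. The part of either list in the Kif7 values was not tested.

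Kif24 (kinesin-13), which keeps cilia from forming in cycling cells, was the better covered of the 2 ciliary kinesins at least 2-fold above WT by FPKM ratio in both mutant libraries. It was at 0.191 FPKM in WT compared to 0.777 in Dspp+/- and 0.471 in Dspp-/-, from 31, 147 and 84 fragments, or 4.07 times WT (2.74 to 6.20) and 2.47 times WT (1.62 to 3.85). The other ciliary kinesins were near the limit of this depth. Kif9 had 48, 45 and 25 fragments, Kif19a 15, 39 and 25, Kif6 17, 10 and 14, and Kif27 13, 5 and 3. For Kif6 neither ratio to WT could be told from 1 at this depth.

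The 6 kinesins outside these classes included Kif2a, a kinesin-13 that works both in neurons and at the spindle poles. It was at 4.17 FPKM in WT compared to 5.001 in Dspp+/- and 6.28 in Dspp-/-, or 1.20 times WT (1.07 to 1.34) and 1.51 times WT (1.35 to 1.68). Of its exon bases 19.2% overlap Dimt1 on the other strand, which had 1.43 and 1.48 times its WT level. Kif26a, which lacks motor activity, was at 3.83, 3.71 and 3.07 FPKM. Kif26b was at 0.256, 0.242 and 0.245 FPKM with intervals that hold 1. Kif28 had 6, 18 and 12 fragments, Kif19b 2, 5 and 3, and Kif12 0, 3 and 0, which are too few to compare.

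The mutant libraries can be compared without WT. The mitotic sum was 1.06 times as high in Dspp+/- as in Dspp-/-, and in fragments per depth the ratio was 1.02 (0.978 to 1.07). Of the 40 kinesins with 20 fragments, 3 were at least 2-fold higher in Dspp+/- than in Dspp-/-, where 5.03% of genes were, and 0 were at least 2-fold lower, where 4.45% were. These 3 were Kif5a at 2.93 (2.09 to 4.18), Kifc5b at 2.52 (1.76 to 3.67) and Kif17 at 2.42 (0.966 to 6.86), the last within counting error. Kif1c, with far more fragments, was 1.44 times as high in Dspp+/- (1.40 to 1.48), and Kif13a 1.37 times (1.295 to 1.45).

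**Figure D4:**
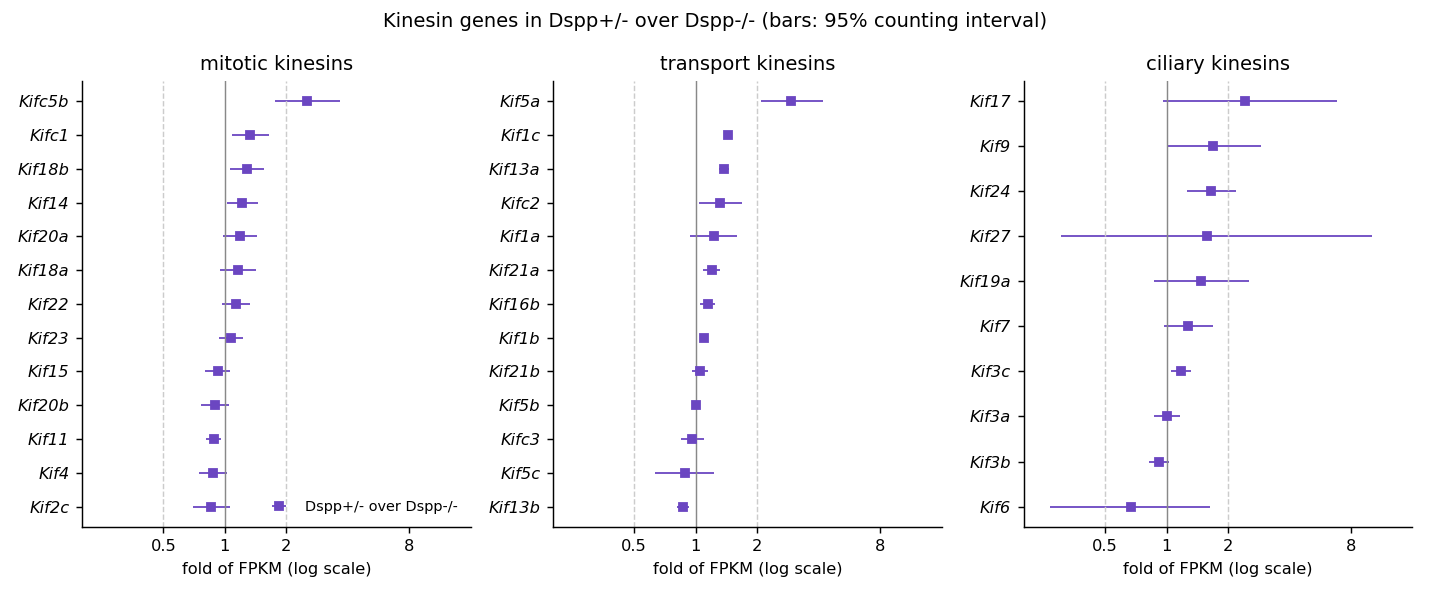
FPKM in Dspp+/- over Dspp-/- on a log axis with 95% counting intervals, for the mitotic, transport and ciliary kinesins. Most points lie near the solid line at 1, and Kifc5b (2.52), Kif5a (2.93) and Kif17 (2.42) lie beyond the dashed line at 2.

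Partners of the mitotic kinesins were higher along with them. Of 24 spindle and kinetochore genes 23 had a mean of at least 1 FPKM, with 22 above WT in each mutant library, 12 and 8 at least 2-fold, and a median log2(FPKM + 1) ratio of 1.02 in Dspp+/- and 0.91 in Dspp-/-, beside 0.06 and 0.01 over all 13026 genes. Nusap1, which bundles spindle microtubules, had the largest ratio on this scale at 1.39, 5.84 and 6.82 FPKM. Numa1, which anchors spindle poles in mitosis and resides in the nucleus otherwise, was the most abundant and the one gene not higher, at 21.9, 20.7 and 17.7 FPKM. Cenpe, the kinesin-7 of the kinetochore whose symbol falls outside the rule, was at 0.642, 2.77 and 3.10 FPKM, or 4.32 times WT (3.52 to 5.34) and 4.82 times WT (3.94 to 5.96). Of 6 cytokinesis genes 5 passed the same filter, Cep55 and Ect2 through the mutant libraries, and all 5 were above WT in both. In each library 2 of the 5 were at least 2-fold higher, beside the same shares of all genes. The medians were 0.84 and 0.89. Ect2, the exchange factor that centralspindlin recruits, led the 5 at 0.908, 3.49 and 4.04 FPKM.

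Among partners of the transport and ciliary kinesins that averaged 1 FPKM or more, none was past 2-fold on the log2(FPKM + 1) scale in either mutant library, though many were below WT. The 9 of 10 light chains and adaptors of kinesin-1 and kinesin-2 with a mean of at least 1 FPKM had medians of 0.05 in Dspp+/- and -0.28 in Dspp-/- on the log2(FPKM + 1) scale. The most abundant of them, the mitochondrial adaptor Trak2, was also the highest relative to WT at 23.1, 33.1 and 30.9 FPKM, and the light chain Klc4 the lowest at 12.9, 10.3 and 8.58 FPKM. For the 15 genes of dynein and dynactin, the opposing motor, medians were -0.09 and -0.13, with 11 and 12 of the 15 below WT. Dync1i1 was the lowest of them relative to WT, at 2.03, 0.9485 and 1.107 FPKM. As FPKM ratios that is 0.467 times WT (0.351 to 0.617), past 2-fold, and 0.5445 times WT (0.413 to 0.714). By that ratio 7.29% of genes with 20 fragments were at least 2-fold lower in Dspp+/-. The 17 intraflagellar transport genes were mostly below WT, 15 of them in Dspp+/- and 11 in Dspp-/-, with medians of -0.23 and -0.10 and a summed FPKM of 0.746 and 0.863 times WT. Their values ran from Ift20 at 25.8, 13.9 and 16.9 FPKM to Ift140 at 1.87, 3.47 and 2.78 FPKM.

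Markers of blood-forming cells moved with the mitotic kinesins. The 15 erythroid markers summed to 954 FPKM in WT compared to 3839 in Dspp+/- and 3732 in Dspp-/-, with 14 of 15 at least 2-fold higher in each mutant library on the log2(FPKM + 1) scale, beside the 4.88% and 4.05% of all genes given above. The 14 neutrophil markers summed to 650, 2938 and 3880 FPKM, all 14 at least 2-fold higher in each. The 10 B cell markers summed to 27.7, 81.3 and 66.8 FPKM, 6 of the 9 at a mean of 1 FPKM being at least 2-fold higher in each. Of the B cell markers only Vpreb1 and Igll1 went the other way in Dspp+/-. Vpreb1 was at 0.403 times WT (0.208 to 0.751), and Igll1, below a mean of 1 FPKM, at 0.351 times WT (0.142 to 0.792). In Dspp-/- Igll1 was at 4.22 times WT (2.64 to 7.02). Vpreb3 and Rag1 were above WT in Dspp+/-, at 2.52 times (1.88 to 3.41) and 2.06 times (1.77 to 2.40). None of these markers was at 0 in any library. The 10 osteoclast markers summed to 2314, 842 and 1360 FPKM and the 10 skeletal muscle markers to 12404, 16716 and 13564. In Dspp+/- 8 of the muscle markers were above WT, while Myh4 was at 0.147 times WT (0.141 to 0.153) and Pvalb at 0.520 times (0.505 to 0.535). In Dspp-/- 5 of them were above WT and 5 below. The part of these cell types in the mitotic kinesin values was not tested.

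**Figure D5:**
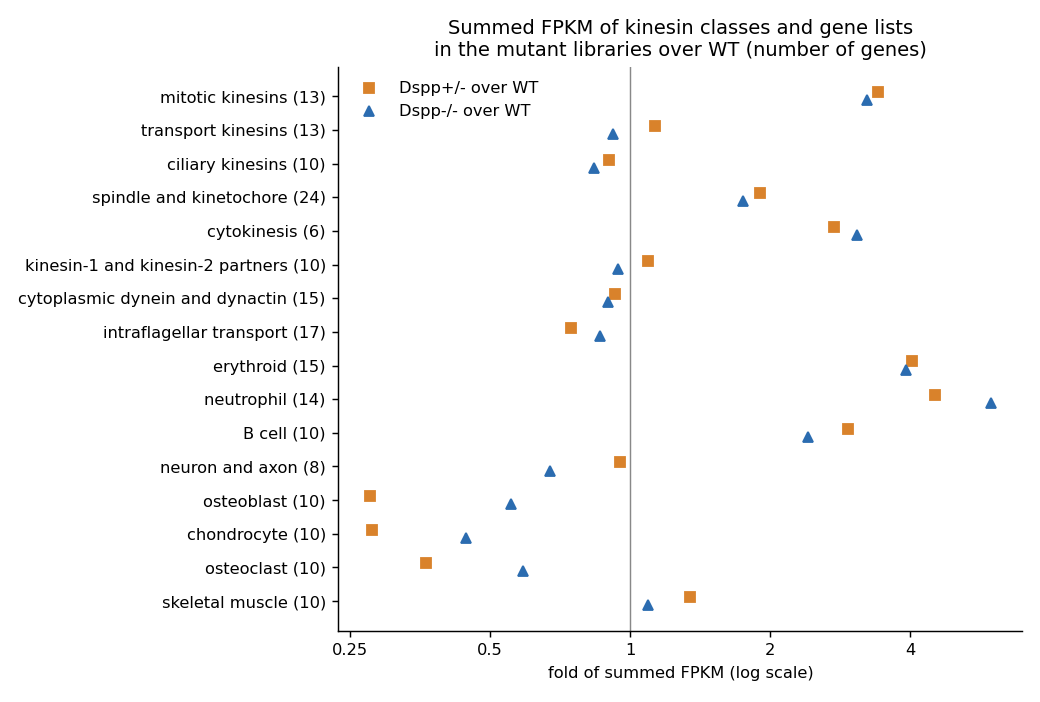
Summed FPKM of each kinesin class and gene list in Dspp+/- over WT (squares) and Dspp-/- over WT (triangles) on a log axis, with the number of genes in parentheses. The mitotic kinesins (3.41 and 3.23) lie to the right with the erythroid (4.03 and 3.91), neutrophil (4.52 and 5.97) and B cell (2.93 and 2.41) lists, the transport and ciliary kinesins and their partners lie between 0.746 and 1.13, and the osteoblast, chondrocyte and osteoclast lists lie to the left.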

How the data were processed

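RNA sequencing covered 1 library each of WT, Dspp+/- and Dspp-/- condyles. The authors deposited 1 table of 26970 genes whose unit it does not name, and its values were taken to be FPKM, since multiplying them by the merged exon length (GENCODE M21) gave whole fragments, within 0.1 fragment, in all 3 libraries for 98.28% of 26652 genes. The submitters' processing notes name FastQC 0.11.5, HISAT2 2.1.0, StringTie 1.3.3b and DESeq 1.28.0 and a human build, hg38, although the organism is mouse. Roles of the tools, annotation and filters are not given in the sources used here, and 589 genes have GRCm38 positions, so gene coordinates of the table are not printed. FPKM does not adjust for composition.

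Fragments behind each value were recovered from the deposited FPKM. For 40 of 42 kinesins they were whole, and those of Kif1b and Kif13a were rounded. A floor of 3 fragments was set, and no fold is given where both libraries are at or under it. Genes averaging at least 1 FPKM were compared on the log2(FPKM + 1) scale with a 2-fold threshold, and, by a rule added after seeing the data, genes with at least 20 fragments as FPKM ratios. Intervals are 95% Clopper-Pearson. No test was made, since 1 library per genotype allows none. All 42 kinesins are named, those with a mean of at least 1 FPKM with their FPKM and the others with FPKM, fragments or both. Of partner lists, extreme or most abundant genes are named, though not all of them in each list. Cenpe was named after its values were seen. The kinesins, their classes and the gene lists were chosen with earlier results of these data known, and Kif19b was put in its class after the table was seen. Dspp, Snap25 and Syt1 were not analysed here. Recovery and intervals were tested on simulated data. The alternatives covered 2 pseudocounts (0.1 and 5), a filter at a mean of 5 FPKM or none, 4 scalings, thresholds of 1.5-fold and 4-fold, and other class members. Promoters are from RefSeq (GRCm38.p6). Scripts ran in Python 3.11.15 with scipy 1.17.1, pandas 2.3.3 and numpy 2.4.6, and plots were drawn with matplotlib 3.10.9.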

Additional observations from a re-analysis of the deposited data

Results flagged for a closer look

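Kif5a, a heavy chain of kinesin-1, lay on opposite sides of WT in the mutant libraries, at 1.61 times WT in Dspp+/- and 0.551 times WT in Dspp-/-. With 1 library per genotype the difference was not tested. The values rest on 76, 143 and 46 fragments.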

How the results depend on the processing

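Values close to WT changed sides with the scaling. Median-ratio scaling took the transport and ciliary median in Dspp+/- from 0.04 to -0.01 and Kif1c from 1.02 to 0.983 times WT. Scaling without hemoglobin, immunoglobulin, mitochondrial and muscle genes took Kif3c from 0.980 to 1.04 and Kif26a from 0.967 to 1.03 in Dspp+/-, and Kif3b from 0.940 to 1.02 in Dspp-/-. No mitotic kinesin changed sides under the 4 scalings. On the log2(FPKM + 1) scale the mitotic median moved from 1.04 in Dspp+/- and 0.92 in Dspp-/- to 1.64 and 1.55 with a pseudocount of 0.1 and to 0.40 and 0.35 with 5. As FPKM ratios it was 1.76 and 1.58. The count of mitotic kinesins higher, 6 and 4, became 10 and 9 at a 1.5-fold threshold, 0 and 0 at 4-fold, 0 and 0 with a pseudocount of 5, 13 and 11 as FPKM ratios, and 9 and 9 with a pseudocount of 0.1. No mitotic kinesin has a mean of 5 FPKM, so that filter gave no value for them.

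The single transport or ciliary kinesin higher in Dspp+/-, Kif21b, became 0 with a pseudocount of 5, a mean of 5 FPKM, median-ratio or upper-quartile scaling or a 4-fold threshold, and 4 kinesins as FPKM ratios. In Dspp-/- the count of 0 became 1 with a pseudocount of 0.1, at 1.5-fold or when scaled without those genes, and 3 as FPKM ratios. The count lower, 0 in Dspp+/-, became 1 with a pseudocount of 0.1 and 2 at 1.5-fold or as FPKM ratios. The count lower in Dspp-/-, 1 (Kif7), became 0 with a pseudocount of 5, a mean of 5 FPKM, 4-fold or scaling without those genes, and 3 as FPKM ratios.

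The ratio of mitotic to transport and ciliary FPKM, 0.0468, 0.144 and 0.166, became 0.0684, 0.168 and 0.202 with Kif2a counted as mitotic, 0.0504, 0.154 and 0.180 without kinesin-2, and 0.0370, 0.117 and 0.140 without kinesin-13 and kinesin-14. The 4 scalings shifted log2 ratios by -0.06 to 0.12, and all 104 mitotic values under them stayed above WT. No paired analysis was possible because each genotype has 1 library, and no library could be left out. Depth limits Kif6, Kif12, Kif17, Kif19a, Kif19b, Kif27 and Kif28. The FPKM-ratio rule and the shorter promoter window were chosen after seeing the data.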
